A study of Rattus norvegicus with 10 samples.

Results

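Here 10 target genes of the tumour suppressor p53 were followed, probe by probe, through the livers of rats given the alkylating agent sulfur mustard: Cdkn1a, Ccng1, Btg2, Gadd45a, Mdm2, Bax, Bbc3, Phlda3, Tp53inp1 and Sesn2. The members were all array probes whose accession belongs to one of these genes, whatever their signal, and they came to 13 probes for 10 genes, among 13837 genes that could be named on the array. Liver RNA of 10 male Sprague Dawley rats, of unstated age, was hybridized to one-colour Agilent whole-genome arrays, 1 array per rat. The 3 control rats received the solvent propylene glycol, the 4 rats of the SM group received sulfur mustard (SM) under the skin at 3.5 mg/kg, which is 0.7 of the median lethal dose (LD50), and the 3 rats of the SM + MSTF group received the same SM dose and, 1 h later, 120 mg/kg by mouth of MSTF, a mixture of salvianolic acids and total flavonoids. All livers were taken 24 h after SM, and the question put to the arrays was which genes SM changed and which of those changes MSTF altered.

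SM carries a pair of reactive arms, so it adds alkyl groups to DNA bases and can link the strands. In damaged cells the kinases ATM, ATR and CHK stabilise p53, which then binds DNA and raises transcription of genes that stop the cell cycle, repair DNA or start apoptosis. Mdm2, itself a target, marks p53 for destruction, and its induction closes a feedback loop. In rodent liver Cdkn1a, Ccng1, Mdm2 and Phlda3 are among the transcripts used to follow exposure to DNA-damaging agents.

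The DNA that p53 reads is a pair of half-sites, each of 3 purines, a C, 2 bases that are A or T, a G and 3 pyrimidines, a pattern that reads alike on both strands. RefSeq promoter windows of the assembly GRCr8, from 250 bases before to 50 bases after the gene's start, were at hand for 7 of the 10 genes, and not for Bax, Bbc3 or Tp53inp1. A perfect half-site lay in the windows of Cdkn1a, Ccng1 and Gadd45a, and such a half-site lay in 2671 of all 33469 windows (7.98%). Each of the 3 also had another half-site with at most 1 mismatch no more than 13 bases away, which 335 windows (1.00%) had. The windows of Mdm2, Phlda3, Sesn2 and Btg2 held no perfect half-site. The response elements known for Mdm2 lie in the first intron, outside the window. Half-sites outside the windows were not searched for in any of the genes. The stretches around the 3 perfect half-sites are shown because their letters match the pattern next to the starts of these members. They are printed in the direction of the gene, with the half-site in capitals. The stretch of Cdkn1a is chr20:7150711-7150760 on the plus strand, that of Ccng1 chr10:25685079-25685126 on the minus strand and that of Gadd45a chr4:97486818-97486867 on the minus strand. The half-sites start 201, 232 and 48 bases before the start of the gene, in that order.
Cdkn1a: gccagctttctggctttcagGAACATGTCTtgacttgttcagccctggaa
Ccng1: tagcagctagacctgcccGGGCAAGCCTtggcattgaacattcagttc
Gadd45a: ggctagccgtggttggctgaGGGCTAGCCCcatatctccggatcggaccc
These matches describe letters and are no measure of binding, which was not assayed.

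All 10 genes were expressed in every liver. Of the 13 probes, 12 were well above background on all 10 arrays, and these 12 were tested. The thirteenth, a second probe of Cdkn1a, was well above background on 1 control array, 2 SM arrays and 0 SM + MSTF arrays and was not tested. Values are given as log2 signal, the background-subtracted brightness of a probe after quantile normalization over the 10 arrays, on which 1 unit is a doubling. Signals of different probes cannot be compared with each other. The positions of the probes within the transcripts were not known here. In whole liver, a change in the number of cells of a type and a change in RNA per cell cannot be told apart.

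None of the 10 p53 target genes rose or fell detectably after SM. In SM versus control, limma called 553 of the 22991 probes tested over the whole array (2.41%), 224 higher (0.974%) and 329 lower (1.43%), where called means an adjusted p under 0.05 and a change of at least 1.5-fold. Of the 12 p53 target probes it called 0, and 0 had an unadjusted p under 0.05, against 16.4% of all probes. The methods' t-test at an unadjusted p under 0.05 with the fold minimum also called 0 of the 12. For 0 of the 12 did the SM and control arrays fail to overlap, against 18% of all probes. The fitted change was below 0 for 9 of the 12 probes, with a median of -0.10 on the log2 scale and a range from -0.76 to 0.18, beside a median of 0.03 over all probes. Taking for each gene its brightest probe on average, 8 of 10 genes were below 0.

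**Figure D1:**
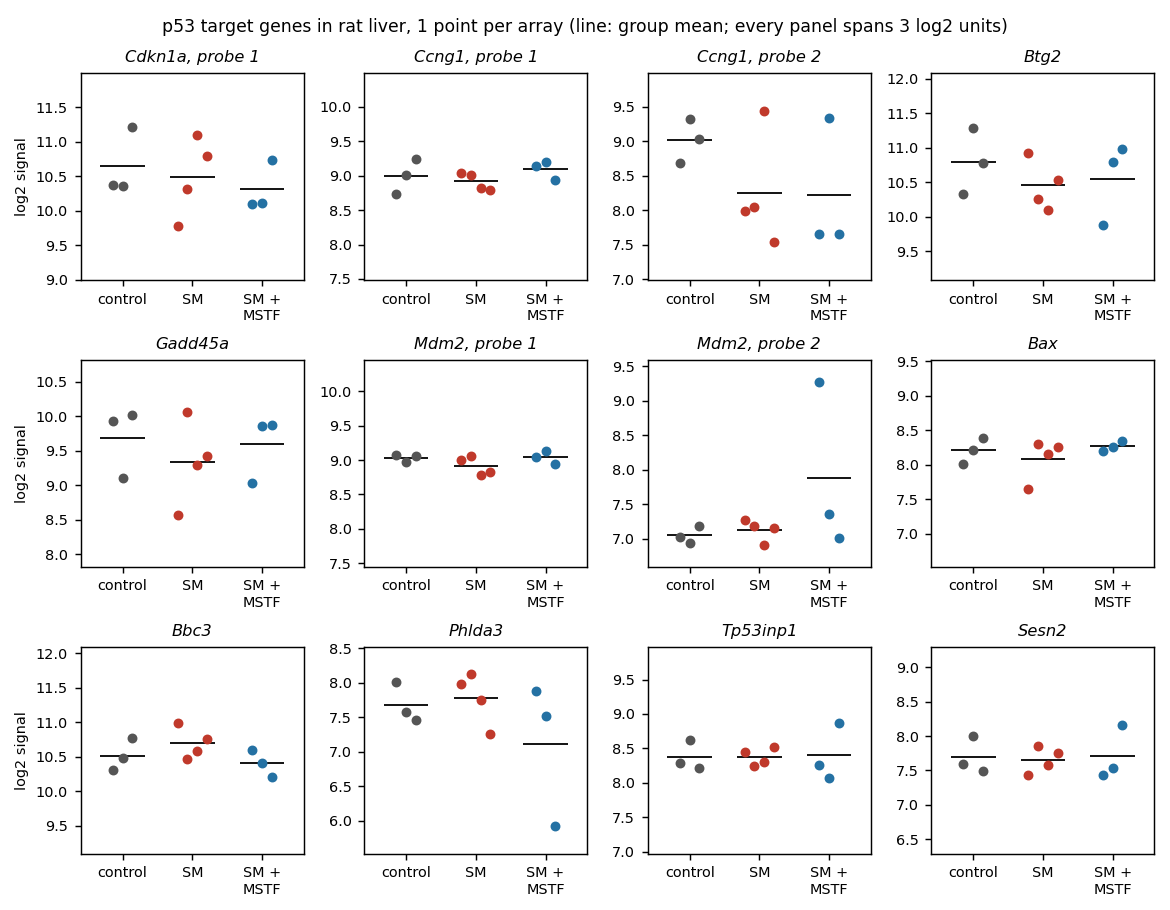
Log2 signal (vertical axis, each panel spanning the same height) of the 12 tested probes on each of the 10 arrays, with 3 control, 4 SM and 3 SM + MSTF arrays per panel and a line at each group's mean. The groups overlap in every panel, and SM + MSTF replicate 1 for the second Mdm2 probe (9.27) and SM + MSTF replicate 3 for Phlda3 (5.92) stand apart from the other arrays.

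How large a rise the arrays could have missed differed between the members. The upper end of the 95% interval of the change in SM versus control lay between 1.08-fold and 2.09-fold, below 2-fold for 10 of the 12 probes and below 1.5-fold for 9 of them. With 1 probe per gene it lay below 2-fold for 9 of 10 genes, Phlda3 being the exception at 2.05-fold, and below 1.5-fold for 8 of 10. An adjusted p above the threshold does not show that a gene was at the same level in both groups, and these intervals give what remained possible.

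**Figure D2:**
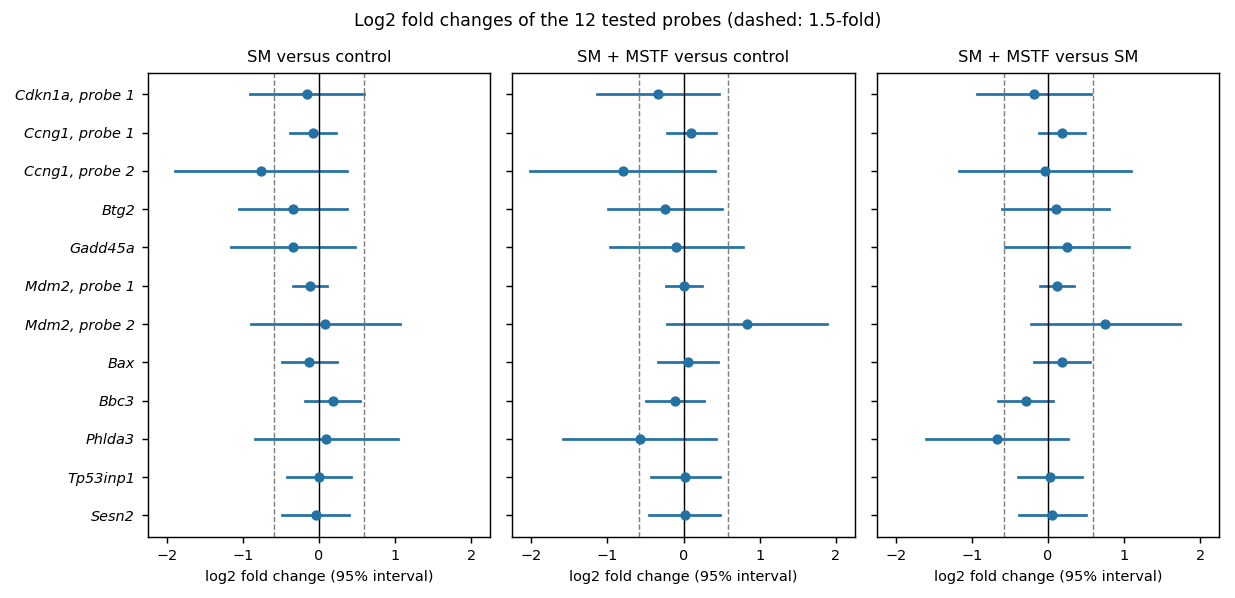
Fitted log2 fold change (point) with its 95% interval (bar) for the 12 tested probes in each of the 3 comparisons, with dashed lines at 1.5-fold. Every interval crosses 0, and those of the first Mdm2 probe and the first Ccng1 probe are the narrowest.

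Among the genes that hold the cell cycle, Cdkn1a encodes p21, the inhibitor of cyclin-dependent kinases that carries much of the p53 arrest. It lies on chromosome 20, and its main probe (A_44_P914438) is printed 10 times on each array. The control arrays read 10.37, 10.36 and 11.22 in log2 signal, the SM arrays 9.77, 10.32, 11.10 and 10.79, and the SM + MSTF arrays 10.11, 10.11 and 10.73. The SM arrays ran from below all controls to just under the highest control, so the ranges overlapped in part. In SM versus control the log2 fold change was -0.15 (standard error 0.33, 95% interval -0.90 to 0.60, adjusted p = 0.868), which allows a rise of up to 1.51-fold. The dim second probe (A_44_P515275) read 3.77, 3.97 and 4.96 in control, 3.37, 4.15, 4.40 and 4.47 in SM and 2.26, 2.33 and 4.34 in SM + MSTF. It was mostly at background, and no fold change is given for it.

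The repeated spots set the spread within an array against the spread between rats. Within an array the 10 spots had a median SD of 0.071 log2 units (0.051 to 0.090 over the arrays), whereas between rats the SD was 0.49 in control, 0.58 in SM and 0.36 in SM + MSTF. For Cdkn1a the SD between rats was thus 5.06 to 8.17 times the median SD between spots. Bax, the other member printed 10 times, had a median spot SD of 0.050 and rat SDs of 0.19, 0.30 and 0.071. For Bax the SD between rats was 1.43 to 6.03 times the median SD between spots.

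**Figure D3:**
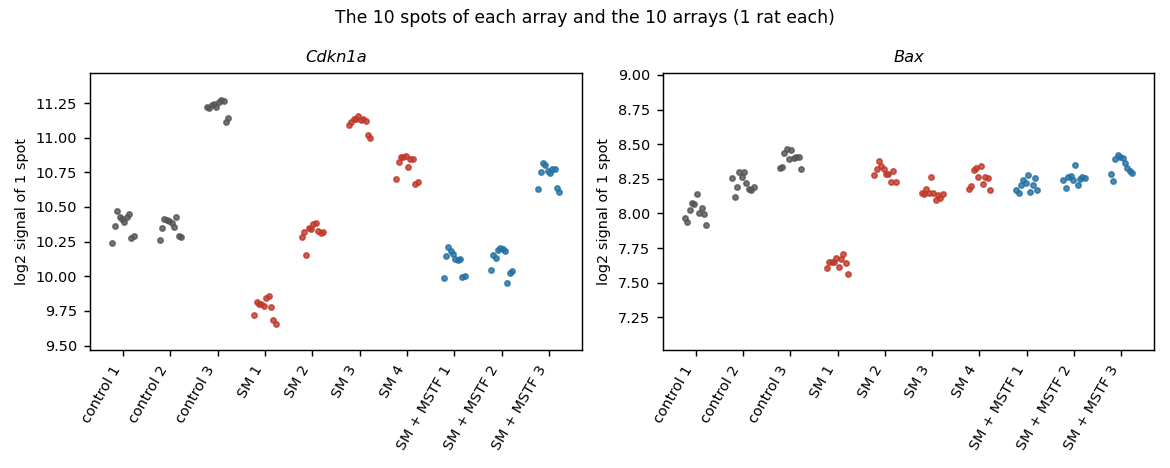
Log2 signal (vertical axis) of the 10 spots of the main Cdkn1a probe (left) and of the Bax probe (right) on each of the 10 arrays, 1 point per spot, coloured by group. For Cdkn1a the spots of 1 array lie close together (median SD 0.071) while arrays of the same group lie apart (SD 0.36 to 0.58), and for Bax SM replicate 1 lies below the other 9 arrays.

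Ccng1 encodes cyclin G1, which recruits a phosphatase to Mdm2, and is among the most steadily induced p53 targets in rodent tissue. It lies on chromosome 10 and had a pair of tested probes. On the first (A_44_P235919) the control arrays read 8.73, 9.01 and 9.24, the SM arrays 9.04, 9.01, 8.83 and 8.80, and the SM + MSTF arrays 9.14, 9.20 and 8.94. All 4 SM arrays fell within the range of the 3 controls. Its fitted change after SM was -0.08 (standard error 0.14, adjusted p = 0.829), and the interval allows a rise of up to 1.17-fold. On the second probe (A_44_P367761) the control arrays read 8.69, 9.32 and 9.03, the SM arrays 7.99, 8.04, 9.43 and 7.54, and the SM + MSTF arrays 7.65, 9.34 and 7.65. This probe fell into a low and a high set of arrays, 5 between 7.54 and 8.04 and 5 between 8.69 and 9.43, with all 3 controls, SM replicate 3 and SM + MSTF replicate 2 in the high set. Its log2 fold change in SM versus control was -0.76 (standard error 0.51, adjusted p = 0.505), and without SM replicate 3 it was -1.16 (adjusted p = 0.275). The first probe showed no such division, with the same arrays all between 8.73 and 9.24, so the pair of Ccng1 probes did not read alike.

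Btg2, an antiproliferative gene induced early after damage, lies on chromosome 13. Its probe (A_44_P398142) read 10.33, 11.28 and 10.77 in control, 10.92, 10.25, 10.10 and 10.54 in SM, and 9.88, 10.79 and 10.98 in SM + MSTF. The highest reading was a control array and the lowest an SM + MSTF array, and the groups overlapped. Its fitted change after SM was -0.34 (standard error 0.31, adjusted p = 0.644). Gadd45a, on chromosome 4, encodes a growth arrest and DNA damage protein that binds p21 and stress kinases. Its probe (A_44_P216395) read 9.92, 9.11 and 10.02 in control, 8.57, 10.06, 9.29 and 9.43 in SM, and 9.03, 9.86 and 9.88 in SM + MSTF. The SM arrays held both the lowest and the highest reading of all 10. Its change was -0.35 (standard error 0.36, adjusted p = 0.693), and -0.09 without SM replicate 1.

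Mdm2, on chromosome 7, encodes the ubiquitin ligase that degrades p53. Its first probe (A_44_P634946) read 9.07, 8.97 and 9.06 in control, 9.01, 9.06, 8.78 and 8.83 in SM, and 9.04, 9.12 and 8.95 in SM + MSTF. The arrays of all groups lay within 0.35 log2 units of each other, the narrowest range of any member. The log2 fold change in SM versus control was -0.12 (standard error 0.10, adjusted p = 0.613), and the 95% interval ends at 1.08-fold. This is the tightest limit among the members on a rise after SM. The second probe (A_43_P16885) read 7.02, 6.94 and 7.19 in control, 7.27, 7.18, 6.91 and 7.15 in SM, and 9.27, 7.36 and 7.01 in SM + MSTF. Here SM + MSTF replicate 1 stood far above every other array, on a probe printed once per array, while the same array read 9.04 on the first probe, in the midst of the others. The log2 fold change in SM + MSTF versus control was 0.83 (standard error 0.47, adjusted p = 0.604), and without that array it was 0.14 (adjusted p = 0.801). Against SM, the values were 0.75 and, without that array, 0.06.

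Of the genes that drive apoptosis, Bax encodes the protein that opens the outer mitochondrial membrane and Bbc3 encodes PUMA, which frees it to do so. Both lie on chromosome 1. Bax (A_43_P11800) read 8.02, 8.22 and 8.40 in control, 7.64, 8.30, 8.15 and 8.25 in SM, and 8.20, 8.25 and 8.34 in SM + MSTF. SM replicate 1 was the lowest array, and the other 3 SM arrays lay among the controls. Its fitted change after SM was -0.13 (standard error 0.16, adjusted p = 0.759), and 0.02 without SM replicate 1. Bbc3 (A_44_P437945) read 10.31, 10.48 and 10.76 in control, 10.98, 10.46, 10.59 and 10.75 in SM, and 10.60, 10.41 and 10.20 in SM + MSTF. It had the highest fitted value of the 12 probes in SM versus control, at 0.18 (standard error 0.16, adjusted p = 0.633), with 1 of 4 SM arrays above all controls.

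Phlda3, on chromosome 13, encodes a small protein that blocks the kinase Akt, and Tp53inp1, on chromosome 5, encodes a nuclear protein that acts with p53 in apoptosis and autophagy. Phlda3 (A_44_P288291) read 8.02, 7.58 and 7.46 in control, 7.99, 8.12, 7.76 and 7.25 in SM, and 7.89, 7.51 and 5.92 in SM + MSTF. SM + MSTF replicate 3 lay far below the other 9 arrays, again on a probe printed once per array. Against control, its fitted change was 0.10 for SM (standard error 0.42, adjusted p = 0.936) and -0.58 for SM + MSTF (standard error 0.45, adjusted p = 0.707), and without that array the second value was 0.02. Against SM, the SM + MSTF value was -0.67 with that array and -0.08 without it. Tp53inp1 (A_43_P21564) read 8.29, 8.63 and 8.22 in control, 8.44, 8.24, 8.30 and 8.52 in SM, and 8.26, 8.07 and 8.88 in SM + MSTF. Its 4 SM arrays lay inside the range of the controls, and the fitted change of 0.00 (standard error 0.19, adjusted p = 0.998) was the one nearest to 0 of the 12.

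Sesn2 stands for the arm of the response that protects against oxidative and metabolic stress, since sestrins hold back mTORC1 and help to restore antioxidant enzymes. It lies on chromosome 5. Its probe (A_44_P802511) read 7.60, 8.01 and 7.49 in control, 7.43, 7.85, 7.59 and 7.76 in SM, and 7.44, 7.54 and 8.15 in SM + MSTF. The groups overlapped, and the log2 fold change in SM versus control was -0.04 (standard error 0.20, adjusted p = 0.942), with an upper limit of 1.32-fold.

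The order of the rats differed from member to member. SM replicate 1 was the lowest SM array for Cdkn1a, Gadd45a, Bax and Sesn2 and the highest SM array for Bbc3, Btg2, the first Ccng1 probe and the second Mdm2 probe. SM + MSTF replicate 3 was the highest array of its group for Cdkn1a, Bax, Sesn2, Gadd45a, Btg2 and Tp53inp1 and the lowest for Bbc3, Phlda3, the first Ccng1 probe and both Mdm2 probes. The spread between arrays of 1 group, taken as the residual SD of the fit, ran from 0.11 for the first Mdm2 probe to 0.77 for the second Ccng1 probe, beside a median of 0.20 over all tested probes. For Cdkn1a, Btg2, Gadd45a, Phlda3, the second Mdm2 probe and the second Ccng1 probe it exceeded that of at least 90.6% of all tested probes. For Bax, Bbc3, Tp53inp1 and Sesn2 it lay between 0.22 and 0.28.

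None of the 10 genes differed detectably between the rats given MSTF after SM and either other group. When SM + MSTF was set against control, limma called 0 of the 12 probes and 0 of the 22991 probes over the array (0%), where 9.54% had an unadjusted p under 0.05, but 0 of the 12. Without SM + MSTF replicate 3, 248 probes were called over the array and still 0 of the 12. That was the only SM + MSTF array on the slide of the controls, so without it treatment and slide cannot be told apart. The groups did not overlap for 0 of the 12 probes, against 15.4% of all. In SM + MSTF versus SM, 0 of the 12 were called and 0 had an unadjusted p under 0.05. Over the array 290 probes were called (1.26%), 74 higher (0.322%) and 216 lower (0.939%), 15.9% had an unadjusted p under 0.05, and the groups did not overlap for 14.7%, again against 0 of the 12. The methods' t-test called 0 of the 12 in both comparisons. The member with the smallest adjusted p in SM + MSTF versus SM was Bbc3, at -0.29 on the log2 scale (standard error 0.16, adjusted p = 0.389). For Cdkn1a the change from SM was -0.18 (standard error 0.33, adjusted p = 0.813), and for the first Mdm2 probe it was 0.12 (standard error 0.10, adjusted p = 0.566). The 3 comparisons share arrays in pairs, so their values are not independent of each other.

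The genes that act upstream of these targets were measured on the same arrays. Of a list of 20 such upstream genes, 11 had a named probe and 9 were tested. In SM versus control 1 rose and 1 fell. Cdkn2a, whose p19Arf product holds Mdm2 away from p53 and whose p16 product inhibits cyclin-dependent kinases, read 5.21, 4.80 and 4.94 on the control arrays, 5.78, 5.69, 5.62 and 5.82 after SM, and 5.18, 5.27 and 5.25 after SM and MSTF. All 4 SM arrays lay above all controls, by 0.75 on the log2 scale in the fit (standard error 0.11, adjusted p = 0.0154), and 2 of the 3 control arrays were well above background. Rchy1, which encodes Pirh2, another ubiquitin ligase that degrades p53, averaged 8.31 ± 0.10 (SD, n = 3) in the controls, 7.49 ± 0.06 (SD, n = 4) after SM and 7.98 ± 0.35 (SD, n = 3) with MSTF added. The fitted fall after SM was -0.82 (standard error 0.15, adjusted p = 0.0260), with all 4 SM arrays below all controls. Leaving out 1 array at a time, Rchy1 lost its call without each of the control and SM arrays (adjusted p 0.057 to 0.0969). Cdkn2a lost it without SM replicate 1 (adjusted p = 0.0532), control replicate 2 (adjusted p = 0.0749) or control replicate 3 (adjusted p = 0.0597).

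The damage kinase Atm was at -0.58 (standard error 0.12, adjusted p = 0.0405), short of the 1.5-fold minimum. Between SM + MSTF and SM, 0 of these 9 genes were called, with Cdkn2a at -0.50 (adjusted p = 0.0684) and Rchy1 at 0.49 (adjusted p = 0.169). Without SM + MSTF replicate 2, Atm was called there, at 0.67 (adjusted p = 0.0427).

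Among 37 further p53 targets, 28 had a probe and 24 were tested. In SM versus control 0 of the 24 were called by limma, 3 were higher and 2 lower at an unadjusted p under 0.05, and the median log2 fold change was -0.04. The 3 genes nearest to the threshold were Psrc1, which encodes a spindle protein, at 0.78 (adjusted p = 0.0813), Slc19a2, a thiamine transporter, at -0.60 (adjusted p = 0.143), and Ppm1d, which encodes the phosphatase Wip1 that switches the damage signal off, at 0.37 (adjusted p = 0.156). A second probe of Slc19a2 was at 0.16. The methods' t-test called Psrc1 and Slc19a2, 1 higher and 1 lower of the 24, at an unadjusted p under 0.05 with the fold minimum. Psrc1 was also called by limma without SM + MSTF replicate 3 (adjusted p = 0.0317) and with only the SM and control arrays in the fit (adjusted p = 0.0496). Between SM + MSTF and SM, 1 of the 24, Psrc1, was called. Its control arrays read 4.56, 4.79 and 5.11, its SM arrays 5.55, 5.84, 5.33 and 5.68 and its SM + MSTF arrays 4.66, 4.83 and 4.09. The change between the treated groups was -1.07 on the log2 scale (standard error 0.20, adjusted p = 0.0359), and control replicate 2 was not well above background. This call was lost without control replicate 2, each of the SM arrays, or SM + MSTF replicate 1 or 3 (adjusted p 0.0625 to 0.0929). In SM + MSTF versus control 0 of the 24 were called by limma, 2 being higher and 3 lower at an unadjusted p under 0.05.

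Relatives of the members give a point of reference. The lists overlap, since Sesn1 is also on the list of further p53 targets and Mdm4 on that of upstream genes. Of 18 such genes 16 had a probe and 14 were tested, with 0 called in SM versus control and a median of -0.09. Ccng2, the relative of Ccng1 that is known as a target of FoxO factors, was at 0.12 after SM (adjusted p = 0.786) and was called lower with MSTF than with SM alone, at -0.87 (standard error 0.17, adjusted p = 0.0426). All 3 SM + MSTF arrays, at 6.62, 5.87 and 6.40, lay below the SM arrays, at 7.16, 7.20, 7.31 and 6.99, and below the controls, at 7.01, 7.20 and 6.93. The call was lost without any single array other than SM + MSTF replicate 1 (adjusted p 0.0574 to 0.126). Without that array Bmf, named here after its values were seen, was called as well, at -0.90 (adjusted p = 0.0259). Tob1, of the Btg2 family, was at -0.61 in SM versus control (adjusted p = 0.105), Cdkn1b, a relative of Cdkn1a, at -0.13 (adjusted p = 0.629) and Phlda2 at 0.23 (adjusted p = 0.706).

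**Figure D4:**
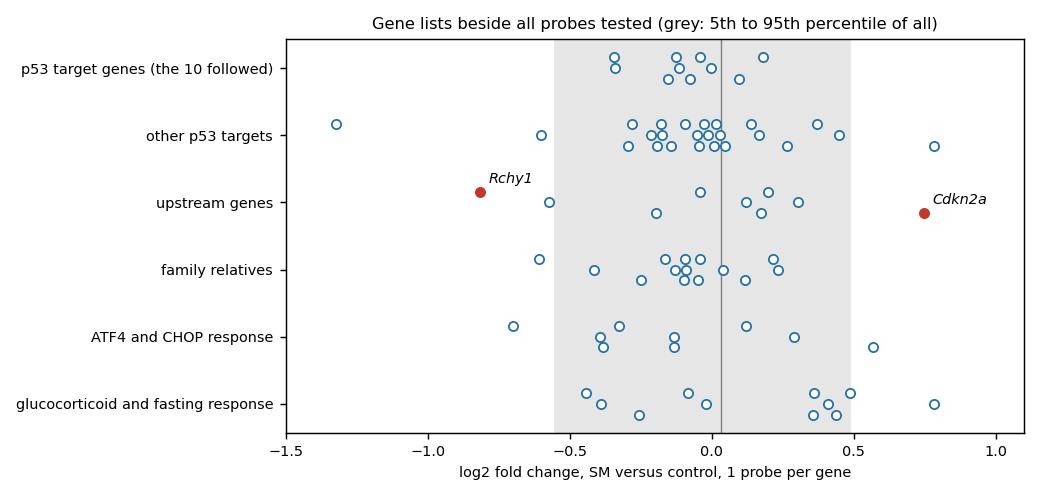
Log2 fold change in SM versus control (horizontal axis), 1 point per gene, for the 10 p53 target genes and for 5 other gene lists, with called genes filled and the range from the 5th to the 95th percentile of all 22991 tested probes in grey. The 10 p53 target genes lie between -0.35 and 0.18, and the called genes of these lists are Cdkn2a and Rchy1.

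Several members also answer to other stress signals, so lists for these were measured beside them. Of 13 genes of the ATF4 and CHOP response, which raises Sesn2 and Bbc3, 9 were tested and 0 were called in any comparison. Their median was -0.13 after SM and 0.31 between SM + MSTF and SM. After SM, Atf3 was at -0.70 (adjusted p = 0.431), Cebpb at 0.57 (adjusted p = 0.339) and Ddit4 at -0.38 (adjusted p = 0.613). Of 11 genes of the glucocorticoid and fasting response all were tested and 0 were called in any comparison, with a median of 0.36 in SM versus control. Sgk1 was at 0.78 (adjusted p = 0.355), Per1 at 0.49 (adjusted p = 0.399) and Angptl4 at -0.44 (adjusted p = 0.450). Without SM + MSTF replicate 3, Zbtb16, named here after its values were seen, was called lower with MSTF, at -1.18 against control (adjusted p = 0.0417) and -1.54 against SM (adjusted p = 0.0117). The SM + MSTF arrays left then shared no slide with the controls. Replicate 3 itself, set alone against the controls of its slide, was at 3.20 for Zbtb16. With all arrays, no gene of this list was below -0.13 in SM + MSTF versus control or below -0.18 in SM + MSTF versus SM.

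The genes whose log2 signal followed that of the main Cdkn1a probe most closely over the 10 arrays were sought among all named genes, as a description only. Arpc5 had the highest Pearson correlation (0.91), followed by Tmem127 (0.86), Hspa4l (0.83), Lypd8l1 (0.82) and Ebi3 (0.82). For the first Mdm2 probe they were Spata7 (0.93), Srp72 (0.93), Ufsp2 (0.91), Kif1b (0.91) and Adtrp (0.91). These correlations rest on 10 arrays that share slides and normalization, and none of the 10 genes was itself a p53 target of the lists.

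The tissue carried its label: 9 of 9 hepatocyte markers were tested, all well above background on every array, and 0 were called in any comparison. Of the markers of other cells, 1 was called. Klrd1, a receptor of natural killer cells, was at -1.22 in SM versus control (standard error 0.23, adjusted p = 0.0277) and at 1.15 for SM + MSTF against SM (adjusted p = 0.0455), with 2 of the 4 SM arrays well above background. It was thus tested only through the control and SM + MSTF groups, where it was higher. Without a filter on dim probes neither call held (adjusted p = 0.0581 and 0.0840, in that order). The first call was lost without SM replicate 1 or 3 or any single control (adjusted p 0.0637 to 0.110), and the second without any single array other than SM replicate 2 (adjusted p 0.0531 to 0.113). All 5 tested natural killer markers of 6 were below 0 in SM versus control. The summed signal of all 6, of which 1 was well above background on no array, overlapped between groups. It was 1037 to 1252 in control, 598 to 1522 in SM and 786 to 1770 in SM + MSTF. For the markers of cholangiocytes (2 of 4 tested), B cells (1 of 4), T cells (5 of 6), neutrophils (2 of 5), Kupffer cells and macrophages (6 of 6), erythroid cells (3 of 5), endothelial cells (4 of 5) and stellate cells (6 of 6), 0 were called. Some of these gained a call in SM versus control when 1 SM + MSTF array was left out. The B cell marker Cd79b was at -2.18 (adjusted p = 0.125, and 0.0217 without SM + MSTF replicate 2), the stellate cell marker Col1a1 at -0.99 (0.235, and 0.0192 without the same array) and the T cell marker Cd8b at 0.60 (0.0810, and 0.0443 without SM + MSTF replicate 1). Cd79b was well above background on all 3 control arrays, 2 of the 4 SM arrays and 2 of the 3 SM + MSTF arrays. It was thus tested only through the controls, where it was highest. Cd79b, Col1a1 and Cd8b were also called with only the SM and control arrays in the fit and by the methods' t-test at an unadjusted p. Col1a1 was called by that test after Benjamini-Hochberg as well (adjusted p = 0.0476). A second probe of Col1a1 was at -0.42 in SM versus control (adjusted p = 0.373) and was not called by limma. The part of any of these cell types in the values of the p53 targets was not tested.

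On each array 51.9% to 61.4% of probes were well above background, no spot was saturated, and the median ratio of signal to background was 2.20 to 2.54. The 4 SM arrays shared slide 2, the 3 controls lay on slide 1 with SM + MSTF replicate 3, and the remaining SM + MSTF arrays lay on slide 3. SM and slide 2 cannot be told apart in any value given for SM. Within slide 1, SM + MSTF replicate 3 alone could be set against the controls, assuming that it varied like the other arrays, and 0 of the 12 p53 target probes were called there, against 291 over the array. Phlda3 came nearest, at -1.76 (adjusted p = 0.0516), which is the low reading of that array.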

How the data were processed

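The authors scanned the arrays, read each spot's intensity with Feature Extraction 10.7, which subtracts the background, and deposited these files together with log2 values quantile normalized in GeneSpring. Here the deposited background-subtracted intensity was the starting point. After removal of control and non-uniform spots, the 10 arrays were quantile normalized, and log2 values of spots that belong to 1 probe were averaged (R 4.3.3, limma 3.58.1). The deposited log2 values, whose median was 5.18 on every array, correlated with these at 0.99999 and served as an alternative. 

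Of 41012 probes, the 22991 that all arrays of some group showed well above background were tested in 1 limma fit (lmFit, eBayes) with Benjamini-Hochberg adjustment over all of them. Called means an adjusted p under 0.05 and at least 1.5-fold, the fold minimum of the methods. The procedure was tested on simulated data. Probes were named through their accessions from RefSeq genes of GRCr8 (17512 probes). The labels give the arrays of a group as numbered replicates, and the authors describe them as separate rats. Each p-value sets a difference between groups against the spread between arrays of a group. The SM arrays shared 1 slide and the controls another, so within these groups that spread holds no difference between slides. Precision is limited by how many arrays there are.

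The genes and lists were chosen with earlier results of these data known. Named are all probes of the 10 genes, and of each other list the genes called in any comparison and up to 3 with the smallest unadjusted p in SM versus control, with 1 probe per gene, that of highest mean signal. The values of 1 gene of the lists are not reported here. Promoters were searched for the p53 half-site in RefSeq windows. The alternatives were 75th percentile scaling, the deposited values, normexp on median signals (offset 50), all probes or only those bright on all arrays, non-uniform spots included, fits to a pair of groups, calls by adjusted p alone or by unadjusted p, the methods' t-test, a block for replicate number or slide, and omission of single arrays.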

Additional observations from a re-analysis of the deposited data

Results flagged for a closer look

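In the SM group, the only one of 4 arrays, each probe named was looked at for 1 array that lay far from the other 3, by the gap to the nearest array as a share of the group's range (Dixon's test). None of the 12 p53 target probes stood out, the highest share being 0.777 for Bax, where SM replicate 1 read 7.64 and the others 8.15 to 8.30. Among the genes named from the other lists 3 did. For Rchy1 the share was 0.87, with SM replicate 2 at 7.40 and the others at 7.52 to 7.53, a gap of little size in log2 units. For the endothelial markers it was 0.881 for Lyve1 (SM replicate 4) and 0.88 for Pecam1 (SM replicate 1). Chance alone marks about 1 in 20 groups, and 54 were looked at.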

How the results depend on the processing

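The count of p53 target probes called, 0 in each of the 3 comparisons, was 0 under every alternative run, and it ran from 0 to 0 over the 10 settings that leave out 1 array. With the replicate block, that is the replicate number as a term of the fit, it was also 0 in each comparison. For same-numbered arrays of different groups the correlation of deviations was -0.10 to 0.17 over 9 pairs (median 0.07). For arrays of unlike number it was -0.23 to 0.18 over 24 pairs (median -0.04). The pairs share arrays, so these ranges cannot settle whether the replicate numbers pair the rats. Over all probes the replicate block left 53 calls in SM versus control and 64 between SM + MSTF and SM. The slide as a fixed block could be fitted for SM + MSTF versus control only. Alternatives that change only the filter, the test, the call rule or the groups in the fit leave a log2 fold change as it is. Omission of an array outside a comparison does so too, so many values under alternatives could not move. Of 840 log2 fold changes of the 12 probes under alternatives, 834, with those that could not move among them, moved by less than the SD between replicates. Of the 840, 56, none of them called, changed sign. The 6 that moved by more belong to the second Mdm2 probe and Phlda3, given with the arrays they rest on, and to Sesn2 (0.45) and Tp53inp1 (0.50) in SM + MSTF versus control with the slide as a fixed block. No scaling moved the median of all probes by 0.1 on the log2 scale.

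Over all probes, the 553 calls in SM versus control became 217 with normexp, 342 without a filter, 336 with probes well above background on all arrays, 85 with the slide as a random block (correlation within slides 0.109), 1290 at an unadjusted p and 1131 by the methods' t-test (320 after Benjamini-Hochberg). With 1 array left out they ran from 61 (control replicate 2 out) to 715 (SM + MSTF replicate 3 out). The 290 calls in SM + MSTF versus SM became 57, 269, 140, 102, 1232 and 863 (13) in that order, 147 with only these groups in the fit, and 96 to 291 with 1 array left out. In SM + MSTF versus control the 0 calls became 692 at an unadjusted p, 285 by the methods' t-test and 248 without SM + MSTF replicate 3. The cause of these differences was not tested. Cdkn2a and Rchy1 were not called in SM versus control with normexp (0.26, adjusted p = 0.0908, and -0.56, adjusted p = 0.0426 but under 1.5-fold), the replicate block or the slide as a random block. Nor was Klrd1 under these settings (-0.36 with normexp). The methods' t-test after Benjamini-Hochberg called Rchy1 there (adjusted p = 0.0130), but not Cdkn2a (adjusted p = 0.0573) or Klrd1 (adjusted p = 0.0961). Klrd1, Psrc1 and Ccng2 were not called in SM + MSTF versus SM with normexp (0.29, -0.26 and -0.53, in that order). Nor were they with the replicate block or the slide as a random block. These calls were also lost with only these groups in the fit (adjusted p = 0.118, 0.0770 and 0.106, in the same order). Without a filter they were lost too (adjusted p = 0.0840, 0.0688 and 0.0734). So they were by the methods' t-test after Benjamini-Hochberg (adjusted p = 0.269, 0.222 and 0.241). With normexp in SM versus control, Atm was at -0.14 (adjusted p = 0.305) and Cd79b at -0.62 (adjusted p = 0.0826). With the slide as a fixed block, Ephx1 (-1.24, adjusted p = 0.0234), Fkbp5 (1.14, adjusted p = 0.0320), Per1 (1.18, adjusted p = 0.0379) and Zbtb16 (3.20, adjusted p = 0.0017), of the lists, were called in SM + MSTF versus control.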
